A study of Mus musculus with 3 samples.

Results

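Thymic T cells that carried the transcripts of several secreted effector molecules at once were examined in the 3 droplet scRNA-seq libraries of the study. The cells were selected on their own UMI counts (a UMI is the barcode by which 1 captured transcript is counted once). Cells were kept with more than 200 but fewer than 6000 genes if mitochondrial genes took under 10% of their UMIs. A cell was in the cytokine and chemokine gate if at least 3 of Ifng, Xcl1, Ccl3 and Ccl4 had a UMI and the 4 genes together had at least 20 UMIs per 10000 UMIs of the cell. By this rule 330 of 15961 kept cells were in the gate (2.07%), namely 267 of 5970 in the BM only library, 63 of 5557 in the BM + Spl library and 0 of 4434 in the C57BL/6 library. They were compared, within each library, with cells outside the gate that had at least 3 of Klrd1, Klrk1, Klrc1, Klre1, Ccl5, Cd160 and Fasl, genes of NK receptors and of cytotoxic T cells. There were 697 such comparison cells in C57BL/6, 1569 in BM only and 519 in BM + Spl. Cells in the gate were not asked for these genes, and 207 of 267 in BM only and 48 of 63 in BM + Spl had at least 3.

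The C57BL/6 library came from mice aged 7 weeks by the labels that had no bone marrow transplantation (BMT). For the BMT libraries, F1 (C57BL/6 x BALB/c) hosts had been irradiated and given T cell-depleted bone marrow of C57BL/6 donors, alone (BM only) or with splenic cells of the same donor strain (BM + Spl, the graft-versus-host disease group). The BMT mice were 16 weeks old and were taken 9 weeks after BMT. In each group the thymocytes of several mice were pooled, CD8+ cells were depleted and TCRβ+CD1d-tet+CD24−NK1.1− cells were sorted, where the CD1d tetramer marks the invariant NKT (iNKT) cell receptor. Each condition was 1 library, so no difference between conditions has a replicate check. The deposited tables held 4613 cells with 60600408 UMIs (C57BL/6), 5986 cells with 35041153 UMIs (BM only) and 5573 cells with 43383960 UMIs (BM + Spl). Intervals in parentheses are 95% intervals and cover counting error only.

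iNKT cells are T cells with a nearly invariant α chain that recognise lipids on CD1d and acquire effector programs while still in the thymus. The NKT1 subset, which depends on the transcription factor T-bet (Tbx21), is known for IFN-γ, for NK receptors and for cytotoxic granules, and its cells can hold cytokine transcripts without release of the protein. Of the genes of the gate, Ifng encodes IFN-γ, Xcl1 a chemokine that attracts cross-presenting dendritic cells, and Ccl3 and Ccl4 the inflammatory chemokines MIP-1α and MIP-1β. Transcripts of Ccl3 and Ccl4 are induced after activation of T cells and NK cells. In the mouse genome (GRCm38), Ifng lies on chromosome 10 (118441046 to 118445892), Xcl1 on chromosome 1 (164931644 to 164935527), and Ccl3 (83647844 to 83649355) and Ccl4 (83662584 to 83664683) beside each other on chromosome 11.

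Most NKT1 markers had similar shares in the gates of BM only and BM + Spl, while Klrb1c did not. Most cells in the gate were T cells in both libraries. Cd3g, a chain of the T cell receptor complex, had a UMI in 262 of 267 cells in the gate of BM only. In that of BM + Spl it had one in 57 of 63. Of the NKT1 markers, Tbx21 had a UMI in 121 of 267 (45.3%) and 26 of 63 (41.3%). Il2rb was found in 85.8% and 88.9%, Cxcr3 in 51.7% and 52.4%, Slamf7 in 52.4% and 47.6% and Stat4 in 47.9% and 60.3%. Nkg7 was found in 98.5% and 92.1%, Cxcr6 in 90.6% and 82.5% and Il12rb2 in 34.1% and 19.0%. Zbtb16, which encodes the iNKT factor PLZF and is low in NKT1 cells, was found in 28 of 267 (10.5%) and 2 of 63 (3.17%). Klrb1c, the NK1.1 gene, was found in 127 of 267 (47.6%) and 4 of 63 (6.35%). The comparison cells had Zbtb16 in 17.9% and 7.13% and Klrb1c in 39.4% and 5.20%, so the low share of Klrb1c in BM + Spl was found in both cell groups. Trav11, the α segment of the iNKT receptor, had a UMI in 1 of 267 and 0 of 63 cells in the gate. Comparison cells had it in 25 of 1569 and 0 of 519, and in 165 of 697 of C57BL/6. It was too rare in both groups of the BMT libraries to show which cells were iNKT cells.

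The V beta segment of the T cell receptor separated the 2 BMT libraries. A segment was assigned where it held at least 80% of the V beta UMIs of a cell, and the iNKT V beta were taken to be Trbv29, Trbv1, Trbv12-2 and the Trbv13 segments 13-1, 13-2 and 13-3. Among the cells in the gate with an assigned segment, 169 of 185 (91.4%, 86.3 to 95) had an iNKT V beta in BM only and 19 of 40 (47.5%, 31.5 to 63.9) in BM + Spl. The comparison cells had 944 of 1038 (90.9%) and 114 of 373 (30.6%, 25.9 to 35.5). Trbv12-2 was the most frequent segment of the cells in the gate, in 59 of 185 cells of BM only and 6 of 40 of BM + Spl. Among comparison cells it was in 387 of 1038 and 38 of 373. Counting Trbv12-2 as an iNKT segment was a choice that was not tested. This choice raised the iNKT shares above, and more so in BM only than in BM + Spl. Segments outside the iNKT set were assigned to 16 cells in the gate of BM only and to 21 in that of BM + Spl. In BM + Spl Trbv16 was among them, in 5 of 40 cells.

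Although CD8+ cells had been depleted, Cd8a or Cd8b1, the chains of the CD8 coreceptor, had a UMI in 31 of 267 cells in the gate of BM only (11.6%, 8.03 to 16.1) and in 31 of 63 of BM + Spl (49.2%, 36.4 to 62.1). The comparison cells had 109 of 1569 (6.95%) and 147 of 519 (28.3%). Cd4 had a UMI in 12 of 267 (4.49%) and 20 of 63 (31.7%) cells in the gate. The cells are therefore called by the gate and not by a subset name.

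**Figure D1:**
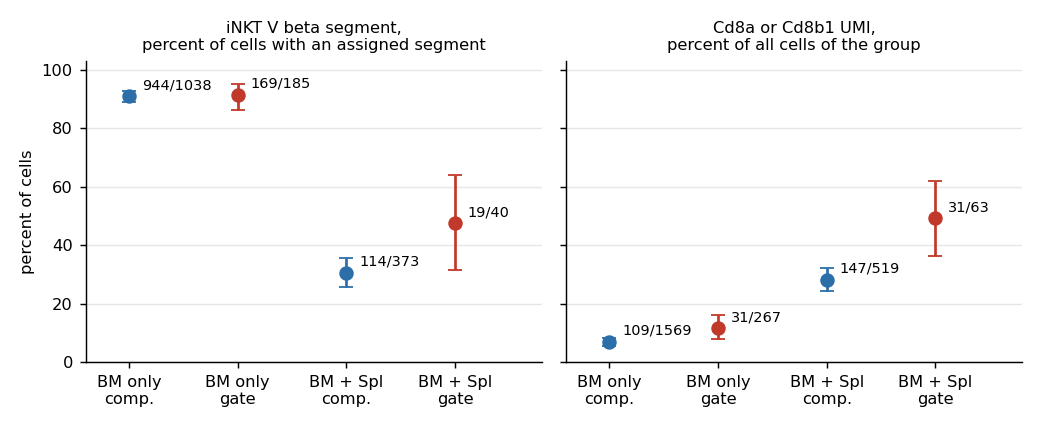
Share of cells with an iNKT V beta segment among cells with an assigned segment (left) and share of all cells with a UMI of Cd8a or Cd8b1 (right), in percent, for comparison cells (blue, comp.) and cells in the gate (red) of the BMT libraries. Bars are 95% Clopper-Pearson intervals and the labels give cells over cells counted. With the segment set chosen in the text, the iNKT share was above 90% in both groups of BM only. It was below 50% in both groups of BM + Spl. Leaving out the most frequent segment of the gate would lower these shares. The Cd8 share was highest in the gate of BM + Spl.

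The share of cells in the gate differed between the libraries. To compare shares at 1 depth, cells were thinned to 2700 UMIs, which left out 15, 955 and 563 shallower cells of C57BL/6, BM only and BM + Spl. After thinning, 1 of 4419 cells (0.0226%, 0.000573 to 0.126), 198 of 5015 (3.95%, 3.43 to 4.52) and 46 of 4994 (0.921%, 0.675 to 1.23) were in the gate. Without thinning the shares were 0 of 4434 cells, which allows a share of up to 0.0677%, then 4.47% (3.96 to 5.03) and 1.13% (0.872 to 1.45). The thinned share was thus 4.29-fold lower in BM + Spl than in BM only (log2 ratio −2.10, −2.56 to −1.64), and the log2 ratio was −1.39 at a gate sum of 40.

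Cells with the NK receptor panel were also fewer in BM + Spl, 10.2% of kept cells against 29.7% in BM only, a 2.92-fold difference. Among the panel-positive and gate cells combined, the thinned share of the gate was 17.0% (14.9 to 19.2) in BM only and 13.4% (9.99 to 17.5) in BM + Spl. That log2 ratio was −0.34 (−0.77 to 0.09), an interval that includes 0, while without thinning it was −0.43 (−0.80 to −0.05), an interval below 0. The difference among panel-positive and gate cells was thus smaller than that among all kept cells, and its interval depended on the thinning. A library holds relative shares, so fewer cells in the gate and more cells of other kinds cannot be told apart.

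The C57BL/6 library held almost no Ccl3 and Ccl4. In its 4434 kept cells there were 490 UMIs of Ifng, 1587 of Xcl1, 4 of Ccl3 and 34 of Ccl4, and 4 cells had 3 of the 4 genes. The highest gate sum among those was 18.9 UMIs per 10000. The C57BL/6 counts came from another Cell Ranger version than the BMT counts (3.0.2 against 7.0.0 in the headers), and V beta UMIs were found in 72 of its 697 comparison cells against 1501 of 1569 and 485 of 519 in the BMT libraries. The transplantation, the age of the mice and these differences in counting or library kit cannot be told apart, and C57BL/6 values are given beside the others without a comparison.

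The gate genes were not equally spread over the cells of the gate. These values chose the cells and are a description. In BM only, Ifng had a UMI in 259, Xcl1 in 260, Ccl3 in 100 and Ccl4 in 251 of 267 cells. In BM + Spl, they had one in 60, 49, 41 and 60 of 63 cells. The common combination in BM only was Ifng, Xcl1 and Ccl4 without Ccl3, in 167 of 267 cells (62.5%), while all 4 genes were found in 69 (25.8%). In BM + Spl the same triple made up 22 of 63 cells (34.9%) and all 4 genes 21 (33.3%), and 14 cells (22.2%) had Ifng, Ccl3 and Ccl4 without Xcl1 against 7 of 267 (2.62%) in BM only.

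Levels are given as CPM, the UMIs of a gene per 1000000 UMIs of the summed cells. Ifng was at 976 (923 to 1031) in the gate of BM only and 1168 (1067 to 1277) in that of BM + Spl, against 413 and 218 in comparison cells and 49.2 in those of C57BL/6. Xcl1 was at 1055 and 3483 in the gate against 637 and 801, with 194 in C57BL/6. Ccl3 was at 417 and 695 against 21.4 and 19.6. Ccl4 was at 2279 and 3368 against 115 and 99.2, so Ccl3 and Ccl4 were set further apart by the gate than Ifng and Xcl1.

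**Figure D2:**
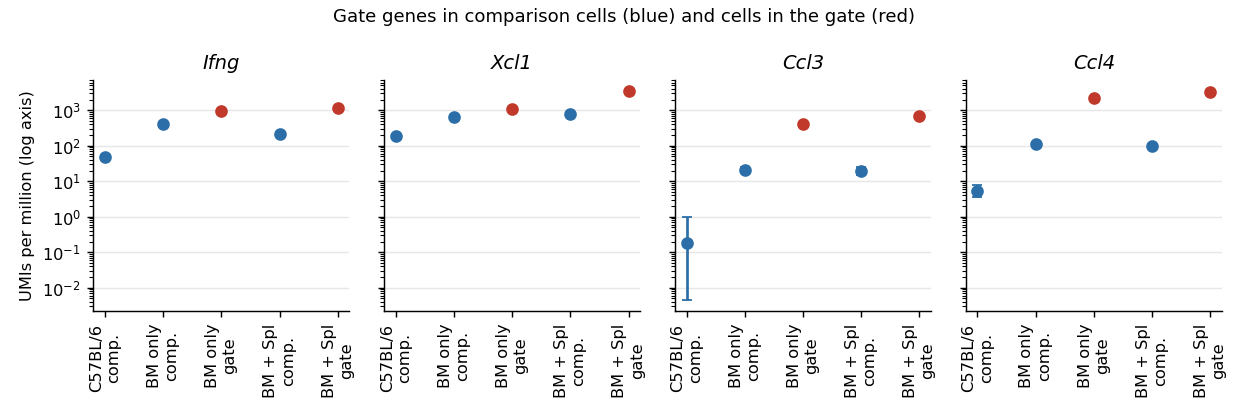
CPM (log axis) of the gate genes in comparison cells (blue, comp.) and cells in the gate (red) of each library. Points are sums over cells and bars 95% Poisson intervals, mostly smaller than the points. Ifng and Xcl1 were already high in BM only comparison cells, at 413 and 637, while Ccl3 and Ccl4 were at 21.4 and 115.

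The share of a gene's UMIs that lay in the gate, which these genes chose, differed between them. Of all UMIs in kept cells of BM only, the 267 cells held 66.7% of Ccl3 and 62.1% of Ccl4, but 20.3% of Ifng and 15.7% of Xcl1. The 63 cells of BM + Spl held 48.3% of Ccl3, 39.0% of Ccl4, 17.8% of Ifng and 27.4% of Xcl1. NKT2-like cells of the same libraries were found by an NKT2 gene panel and had no UMI of the panel genes asked of comparison cells. They were deeper in UMIs, with medians of 9494 and 10241 against 4449 and 6006 in the gate. Ccl4 had a UMI in 0.279% and 0.530% of these cells and Ifng in 4.18% and 4.50%. The shares in comparison cells, 17.4% and 15% for Ccl4 and 62.1% and 52.6% for Ifng, were above those levels. The selection set NKT2-like and comparison cells apart on the panel genes, so part of this gap may be built in. Cells with B cell genes gave other shares. In BM + Spl, 12.8% of 47 such cells (4.83 to 25.7, median 7955 UMIs) had a Ccl4 UMI and 14.9% (6.20 to 28.3) a Ccl3 UMI, beside 15% and 4.24% of comparison cells and 0.530% and 0.132% of NKT2-like cells. By level, Ccl4 was at 99.2 CPM in comparison cells and 19.7 in these B cells, and Ccl3 at 19.6 and 24.6. In BM only, 1 of 73 had either gene. In the 47 cells of BM + Spl, Ifng had a UMI in 0 and Xcl1 in 1. The shares thus differed between the cell types of BM + Spl. Whether the UMIs in B cells came from these cells themselves or from background was not tested.

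Single cells weighed on these sums. The median gate sum was 35.3 UMIs per 10000 in BM only and 50 in BM + Spl, and the highest were 1588 and 531. One cell of BM only held 500 of the 2987 UMIs of Ccl4 and 215 of the 547 UMIs of Ccl3. In BM + Spl the highest cell held 365 of 1449 UMIs of Xcl1. The lowest sums inside the gate were 20 and 21.0, and the highest sums outside it among cells with 3 of the 4 genes were 19.9 and 18.5. In BM only 49 cells lay between 20 and 25 and 64 cells outside the gate between 15 and 20, and in BM + Spl there were 8 and 18.

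**Figure D3:**
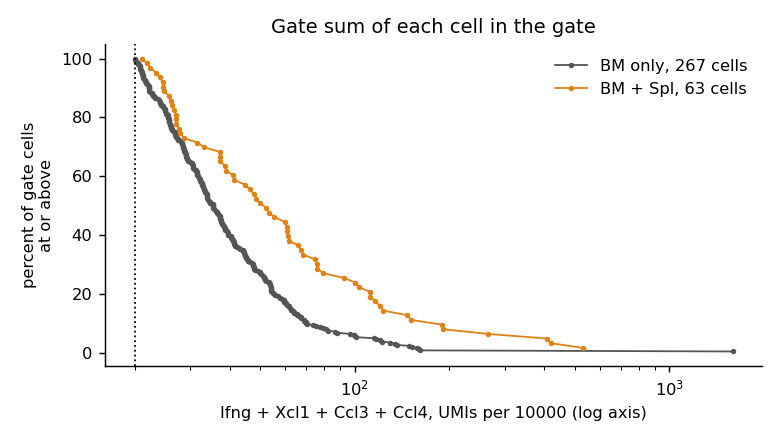
Percent of the cells in the gate at or above each gate sum (log axis, UMIs of the 4 genes per 10000 UMIs of the cell) for BM only and BM + Spl. The dotted line marks the threshold of 20. Medians were 35.3 and 50, and 1 cell of BM only stood apart at 1588.

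The promoters of the gate genes, which define the cells, were read for short motifs of activation factors. Promoter windows of 300 bases, from 250 before to 50 after the transcription start, were taken from the RefSeq table of GRCm38.p6. The search matched windows for 3 of the 4 genes and none for Ccl4. The bases before the start are shown, 5′ to 3′ on the strand of the gene, with motif matches in capitals. Ifng is on the plus strand at chr10:118440796-118441045, Xcl1 on the minus strand at chr1:164935523-164935772 and Ccl3 on the minus strand at chr11:83649379-83649628.
Ifng: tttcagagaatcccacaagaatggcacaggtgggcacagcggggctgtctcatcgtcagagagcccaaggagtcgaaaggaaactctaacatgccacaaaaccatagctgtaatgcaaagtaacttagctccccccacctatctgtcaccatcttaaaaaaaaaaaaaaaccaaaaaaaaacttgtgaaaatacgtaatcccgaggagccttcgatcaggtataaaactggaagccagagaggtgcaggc
Xcl1: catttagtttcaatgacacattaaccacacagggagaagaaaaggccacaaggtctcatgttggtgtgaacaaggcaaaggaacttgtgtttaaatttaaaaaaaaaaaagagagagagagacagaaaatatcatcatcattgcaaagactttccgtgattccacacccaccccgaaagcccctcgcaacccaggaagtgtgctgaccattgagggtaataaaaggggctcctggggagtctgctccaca
Ccl3: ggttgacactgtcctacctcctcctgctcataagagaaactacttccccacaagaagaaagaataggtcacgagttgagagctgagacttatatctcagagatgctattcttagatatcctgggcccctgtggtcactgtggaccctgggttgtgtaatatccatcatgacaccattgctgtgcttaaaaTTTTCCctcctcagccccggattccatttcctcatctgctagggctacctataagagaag

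The motifs were searched on both strands as the NFAT core GGAAAA, AP-1 as TGANTCA, CRE as TGACGTCA, NF-kB as GGG and CC with 5 bases of any kind between them, EGR as GCGTGGGCG and T-box as AGGTGTGA. The single match in the 3 windows was an NFAT core in Ccl3, which 23.4% of all 32851 windows hold, and none of the other motifs was found. Of the 16 genes named below for the size of their change, 13 had a window, and the NFAT core was in those of 5 and the NF-kB motif in those of 7, where 50.8% of all windows hold the latter. A gene was counted if any of its windows matched, and Egr2 had 5 windows and Spp1 2, so the counts by gene are not on the scale of the share of windows. The AP-1 motif was in 1 of them (7.81% of all windows). A match is a description of the letters and not of a bound site.

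Which other transcripts went with the gate was tested by summing the cells in the gate and the comparison cells of each library, and fitting these 4 sums in edgeR with the library as a block. The C57BL/6 library could not enter because it had no cell in the gate. The p-values therefore rest on 1 residual degree of freedom and mostly on a spread shared across genes (10.7 prior degrees of freedom). A small p-value does not show that a gene's difference was alike in BM only and BM + Spl. The 4 gate genes and the 7 panel genes were left without a test. Of the 9916 other genes, 25 were higher in the gate (0.252%) and 5 were lower (0.0504%) at an adjusted p under 0.05, and 500 had an unadjusted p under 0.05. The median log2 fold change of all tested genes was 0.00. The count depended on few cells and on the block: without the 5 cells of highest gate sum in each library, chosen after seeing the data, 11 genes were higher and 1 was lower, and without the block none passed in either direction, with 84 genes at an unadjusted p under 0.05 in edgeR. The 11 were Il2, Csf2, Ccl1, Cd70, Cd200, Gzma, Spry1, Rgs16, Cd8a, Cd8b1 and Gm2663. The 14 others of the 25 no longer passed there, and their fold changes stayed positive. Of the 25 higher genes, 9 had a UMI in at least 10% of the cells in the gate of both libraries, namely Gadd45b, Gzma, Jaml, Nr4a1, Nr4a2, Nr4a3, Pdcd1, Rilpl2 and Tnfrsf9, and in 6 a single cell held over 50% of the UMIs of a library's gate.

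**Figure D4:**
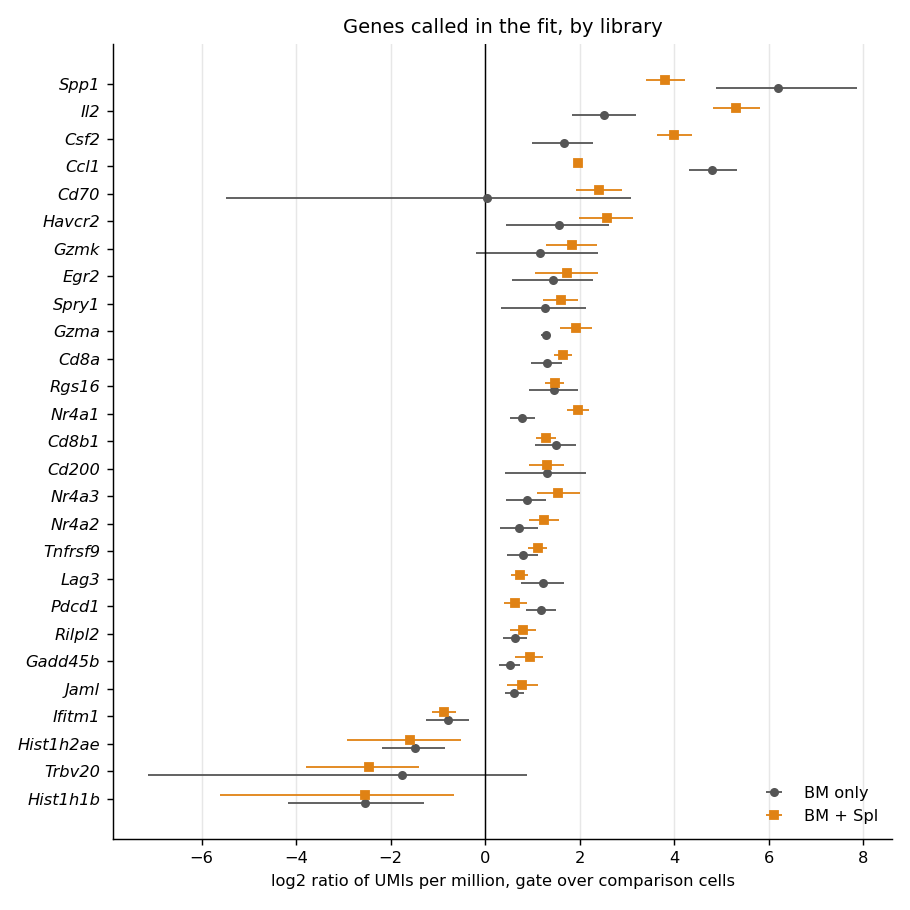
Log2 ratio of CPM, cells in the gate over comparison cells, in BM only (circles) and BM + Spl (squares), for the called genes that had UMIs in all 4 sums, ordered by fitted log2 fold change. Bars are 95% intervals of counting error. Rgs16 lay at 1.46 and 1.47 in the libraries, while Il2 lay at 2.52 and 5.30.

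Several early response genes of T cell receptor signaling rose in the gate. Of 13 tested genes of this list, 4 rose in the gate (30.8%, beside 0.252% of all 9916 tested genes) and none fell. Among the 13, 12 were above 0 in both libraries, and the median log2 fold change was 1.02. The lists were chosen with earlier results of these data known. The counts by list, here and below, are therefore a description and no test of enrichment. Nr4a1, a nuclear receptor induced by receptor signaling, was at 117 CPM in the gate and 67.6 in comparison cells of BM only, and at 543 and 139 in BM + Spl, with 5.61 in C57BL/6 comparison cells. Its log2 fold change was 1.40 ± 0.21 (SE derived from the F statistic of the test, adjusted p = 0.0149). Its relatives Nr4a2 (1.02 ± 0.17, adjusted p = 0.0237) and Nr4a3 (1.20 ± 0.22, adjusted p = 0.0416) rose too, as did Egr2, a factor needed for iNKT development (1.62 ± 0.29, adjusted p = 0.0400). Egr2 was found in 13 of 267 and 13 of 63 cells only. Without the 5 cells of highest gate sum none of these 4 genes passed, at fold changes close to the above (1.38 for Nr4a1, 0.94 for Nr4a2, 1.09 for Nr4a3 and 1.66 for Egr2). In thinned cells the Nr4a genes passed and Egr2 did not (1.69). In DESeq2 Nr4a1 passed (1.41), while Nr4a2 (1.03) and Nr4a3 (1.23) did not. Without cells with Cd8 in either group, Nr4a1 (1.38) and Nr4a3 (1.05) passed, and Nr4a2 (0.46) and Egr2 (1.31) did not. Irf8 (1.05), Irf4 (1.16) and Egr3 (1.04) had similar fold changes without passing the test, and Egr1 had 0.40 and Myc 0.31.

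Receptors that T cells acquire after activation were higher in part. Tnfrsf9, the costimulatory receptor 4-1BB, was the 1 gene of 13 in its list that passed, at 79.4 CPM against 45.7 in BM only and 553 against 255 in BM + Spl (0.99 ± 0.13, adjusted p = 0.00400). Without cells with Cd8 in either group it did not pass (0.55). Cd69, an early activation marker, was at 268 against 194 and 171 against 131 and did not pass (0.44 ± 0.11, adjusted p = 0.310). Of 9 tested genes of inhibitory receptors 3 rose, Pdcd1 (PD-1), Lag3 and Havcr2 (TIM-3), with none lower and a list median of 0.51. Pdcd1 had 111 UMIs in the gate of BM only and 163 in that of BM + Spl, at log2 ratios of 1.19 and 0.64 to comparison cells (0.89 ± 0.14, adjusted p = 0.0225). Lag3 was at 45.8 against 19.6 and 668 against 403 (0.90 ± 0.14, adjusted p = 0.0157). Havcr2 was at 9.16 against 3.08 and 106 against 17.9 (2.26 ± 0.32, adjusted p = 0.0113) from 12 and 44 UMIs, and no longer passed in thinned cells (1.48), without the 5 cells of highest gate sum (2.01) or without cells with Cd8 (1.35). Lag3 had a fold change of 0.33 in thinned cells, 0.31 without cells with Cd8 and −0.29 in cells with an iNKT V beta, without passing, and Pdcd1 did not pass without cells with Cd8 (0.65). Lag3 in the gate was found in 17 of 267 cells of BM only and in 43 of 63 of BM + Spl. Cd200, an inhibitory ligand outside the lists, rose as well (1.32 ± 0.21, adjusted p = 0.0225), but did not pass in DESeq2 (1.33), in thinned cells (1.14) or without cells with Cd8 (0.53). In cells with an iNKT V beta its fold change turned to −0.60. Cd70, a costimulatory ligand gene, passed (2.28 ± 0.33, adjusted p = 0.0113) through BM + Spl, at 144 CPM against 27.2, with 45 of its 60 UMIs in 1 cell. In BM only it was at 0.763 against 0.738, from 1 UMI in the gate. In thinned cells Cd70 no longer passed (1.58), and in cells with an iNKT V beta its fold change turned to −1.70.

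Other secreted molecules rose through a few cells. Of 15 tested cytokine genes 2 rose and none fell (median 0.52). Il2, the T cell growth factor, was at 28.2 CPM against 4.92 in BM only and at 481 against 12.2 in BM + Spl (4.26 ± 0.44, adjusted p = 0.000822). It was found in 4 of 267 and 8 of 63 cells, and 3 cells held 97.3% and 97.0% of its UMIs. Without the highest cell, the log2 ratio of Il2 in BM only was −0.68. Csf2, which encodes GM-CSF, was at 24.4 against 7.75 and 445 against 27.8 (3.18 ± 0.39, adjusted p = 0.00292), in 14 of 267 and 8 of 63 cells. Its log2 ratios without the highest cell were 0.99 and 3.19. In BM + Spl, the 15 cells in the gate with under 3 panel genes held 148 of 200 UMIs of Il2 and 158 of 185 of Csf2. In BM only, such cells held 2 of 37 and 5 of 32. The comparison cells hold no cells of this kind.

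The chemokine gene Ccl1, a ligand of CCR8, was at 148 CPM against 5.29 in BM only and 4317 against 1101 in BM + Spl (2.95 ± 0.41, adjusted p = 0.00846). It was the 1 of 4 tested genes of other chemokine ligands that passed. Cells in the gate with under 3 panel genes held 164 of its 194 UMIs in BM only and 1108 of 1796 in BM + Spl. In DESeq2 none of Ccl1, Csf2 and Il2 passed, at log2 fold changes of 3.4, 2.87 and 3.95. In BM only it was found in 6 cells, and 1 of them held 158 of its 194 UMIs, and in BM + Spl 23 of 63 cells had it, 1 of which held 722 of its 1796 UMIs and 3 of which held 65.4%. Spp1, the gene of the secreted protein osteopontin, was at 59 UMIs in 2 cells of BM only and 134 UMIs in 7 cells of BM + Spl against 5 and 81 in comparison cells (4.32 ± 0.33, adjusted p = 8.89e-05). One cell held 57 and 101 of these UMIs, and without the 5 cells of highest gate sum the fold change was 1.72 and no longer passed.

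Tnf, an inflammatory cytokine gene, had a UMI in 109 of 267 cells in the gate (40.8%) and 25 of 63 (39.7%), close to the 35.0% and 38.3% of comparison cells. It was at 154 CPM against 112 in BM only and 233 against 113 in BM + Spl, and did not pass (0.71 ± 0.15, adjusted p = 0.109). Lta, a lymphotoxin gene, was found in 11 of 267 and 22 of 63 cells. Il4, the NKT2 cytokine, was at 9.92 against 23.8 and 4.81 against 12.8, below the comparison cells in both libraries without passing (−1.28 ± 0.35, adjusted p = 0.360). Of Il2, Csf2 and Tnf, 153 of 267 cells in the gate of BM only and 32 of 63 of BM + Spl had none, and 1 and 2 cells had all 3. Cells with UMIs of all 3 were therefore few at this depth.

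Granzyme A was among the genes that rose. Of 16 tested genes of cytotoxic granules 2 rose and none fell, with 12 above 0 in both libraries and a median of 0.81. Gzma was at 887 CPM against 364 in BM only and 250 against 65.5 in BM + Spl, with 386 in C57BL/6 comparison cells (1.53 ± 0.15, adjusted p = 0.000389). It was in 90 of 267 and 10 of 63 cells. Gzmk also passed (1.69 ± 0.29, adjusted p = 0.0308), from 8 and 43 UMIs, and thinning to 1 depth turned its fold change to −0.28. Gzmb was at 549 against 404 and 409 against 76.3 and did not pass (1.26 ± 0.31, adjusted p = 0.273). Prf1 (1.62 ± 0.41, adjusted p = 0.277), the gene of perforin, and Nkg7 (0.72 ± 0.18, adjusted p = 0.237), a granule protein gene found in 98.5% and 92.1% of the cells, did not pass either.

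Among 22 tested feedback regulators 2 genes that restrain signaling rose, with none lower and a median of 0.35. Rgs16, a regulator of G protein signaling, was at 35.9 CPM against 13.0 in BM only and 599 against 215 in BM + Spl (1.48 ± 0.13, adjusted p = 0.000204), the closest match between the libraries among the 4 regulators named here. Spry1, an inhibitor of Ras signaling, was at 12.2 against 5.05 and 212 against 69.7 (1.53 ± 0.22, adjusted p = 0.0122), and fell short of the test in thinned cells at a fold change of 0.89. Dusp2, a phosphatase of MAP kinases, was at 571 against 395 and 341 against 226 (0.56 ± 0.11, adjusted p = 0.0533). Rgs1 had a fold change of 0.75 ± 0.16 (adjusted p = 0.105). Of 19 genes of the NF-kB pathway none passed in either direction, with 13 above 0 in both libraries and a median of 0.25.

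No gene of the cell identity lists passed the test. None of 12 genes of T cell identity and none of 17 genes of NKT1 factors and receptors passed, with medians of −0.01 and 0.20. Tbx21 was at 141 against 137 CPM in BM only and 111 against 76.8 in BM + Spl (0.20 ± 0.15, adjusted p = 1.0). Hopx, a factor of effector lymphocytes, was at 575 against 483 and 469 against 348 (0.34 ± 0.11, adjusted p = 0.583). None of 17 tested genes of other NK receptors passed, and the Klra genes among them encode near-identical receptors whose reads may have been split. None of 11 genes of NKT2 and precursor cells passed, although 9 were below 0 in both libraries and the median was −0.46, including Zbtb16 (−1.03 ± 0.29, adjusted p = 0.401) and Izumo1r (−0.72 ± 0.17, adjusted p = 0.180). In the NKT17 list 3 genes were tested, none passed and the median was −0.14.

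**Figure D5:**
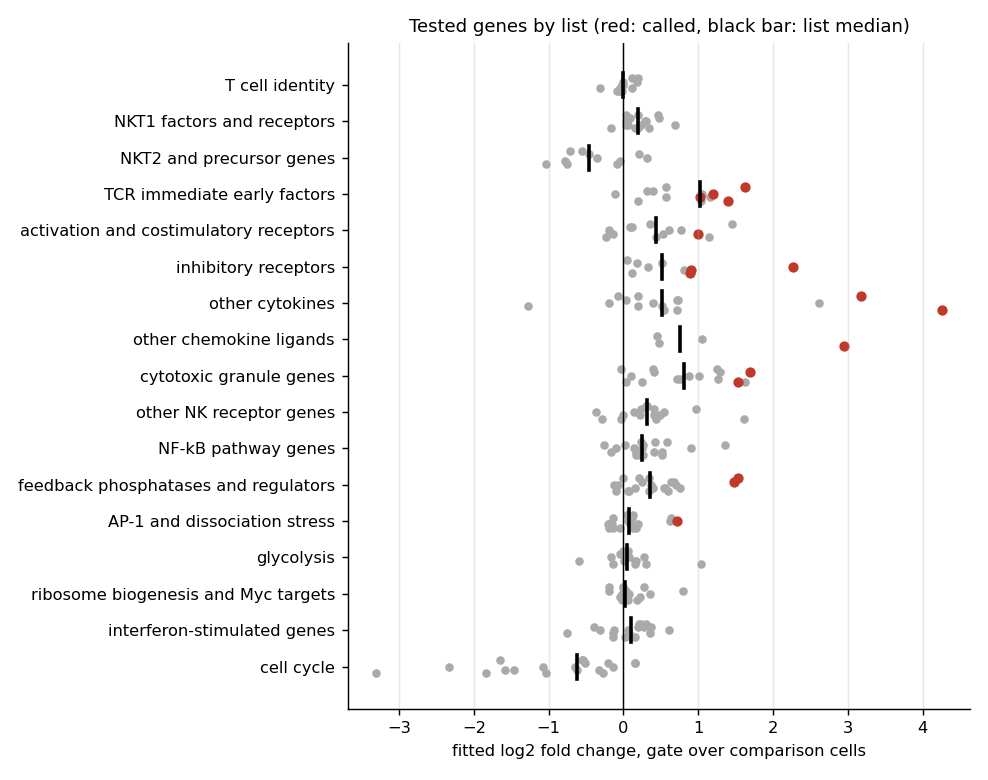
Fitted log2 fold change of each tested gene, cells in the gate over comparison cells, by gene list. Red points passed the test, gray points did not, and black bars are list medians. The list of TCR immediate early factors had a median of 1.02 and 4 called genes, and the cell cycle list a median of −0.62 and none.

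Both Cd8 genes, tested as markers of other cells, rose in the gate. Cd8a was at 84.7 CPM against 34.3 in BM only and 755 against 241 in BM + Spl (1.51 ± 0.13, adjusted p = 0.000148), and Cd8b1 had 1.38 ± 0.13 (adjusted p = 0.000359). The summed level of both was 137 against 52.7 and 1276 against 454. In a fit without all cells holding a Cd8 UMI, chosen after seeing the data, 34 genes were higher and 12 were lower, and 13 of the 25 genes above were again higher, where 22 were tested and all 22 had a positive fold change. In a like fit of cells with an iNKT V beta, 28 were higher and 9 lower, and 7 of the 25 were again higher, where 21 were tested and 18 had a positive fold change.

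Markers of cells outside the T lineage were mostly low. The NK cell marker Ncr1 had a UMI in 11 of 267 cells in the gate of BM only (4.12%). Comparison cells there had 78 of 1569 (4.97%). In BM + Spl Ncr1 had one in 7 of 63 (11.1%, 4.59 to 21.6) against 23 of 519 (4.43%, 2.83 to 6.58). Eomes, also an NK marker, was found in 4 of 267 against 15 of 1569 and in 4 of 63 against 13 of 519. Whether cells in the gate were NK cells was not tested. Of 6 tested markers of macrophages and dendritic cells Lyz2 was lower, with 0 UMIs in the gate of both libraries against 68 UMIs in 2 comparison cells of BM only and 95 in 4 of BM + Spl (adjusted p = 0.0237). The call rests on those few comparison cells. The summed level of this list was 572 CPM against 523 in BM only and 1005 against 772 in BM + Spl, mostly Fcer1g (360.2 and 577), which NK-like cells also express, and C1qa, C1qc, Csf1r, Xcr1 and Clec9a were at 0 in the gate of both. B cell markers were at 93.9 against 12.6 and 52.9 against 141, led by Ly6d, with Pax5 at 0 in both gates. In BM only 53 of the 64 UMIs of Ly6d were in 1 cell, and 1 cell in the gate also met the B cell gate. Plasmacytoid dendritic cell markers were at 185 against 85.4 and 632 against 495, led by Irf8. Erythroid and mast cell markers were at 0 in both gates. No gene of these lists other than Lyz2 passed, nor did any of 6 regulatory T cell markers (median 0.07) or of 6 markers of γδ T cells and innate lymphoid cells (0.04). Of 2 tested markers of CD4+CD8+ thymocytes, Cd8b1 passed. The summed level of all 8 was 58.0 against 28.4 in BM only and 639 against 323 in BM + Spl, led by Cd8b1. Rag1, Rag2 and Arpp21 were at 0 in both gates, while Dntt had a UMI in 2 of 63 cells and Ptcra in 1 of BM + Spl. Their part in the results was not tested.

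Genes of proliferation lay mostly below the comparison cells without passing. Of 19 cell cycle genes none passed, 15 were below 0 in both libraries and the median was −0.62, with Mki67 at 13.0 against 20.3 CPM and 4.81 against 27.5 (−1.04 ± 0.37, adjusted p = 0.705) and Top2a at 7.63 against 20.7 and 9.62 against 35.2 (−1.58 ± 0.34, adjusted p = 0.124). Outside the lists, the histone genes Hist1h1b (−2.53 ± 0.40, adjusted p = 0.0225) and Hist1h2ae (−1.50 ± 0.26, adjusted p = 0.0337), which are made in S phase, fell. Hist1h1b was at 3.82 CPM against 22.2 in BM only and 4.81 against 28.1 in BM + Spl, from 5 and 2 UMIs in the gate. Both histone genes no longer passed without the 5 cells of highest gate sum, at fold changes close to these (−2.48 and −1.46), and none of the 5 lower genes of the fit passed in DESeq2, which gave no adjusted p to several, or in thinned cells, where 2 of them were tested. Ifitm1, of the interferon-induced transmembrane family, fell from 60.5 to 35.1 CPM and from 626 to 344 (−0.83 ± 0.12, adjusted p = 0.0149), and the V segment Trbv20 fell too (−2.35 ± 0.40, adjusted p = 0.0308). Without cells with Cd8 Trbv20 did not pass (−1.34).

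The metabolic and interferon lists had medians near 0. None of 17 glycolysis genes (median 0.05), 20 genes of ribosome biogenesis and Myc targets (0.01), 11 of translation and amino acid uptake (0.15) and 19 interferon-stimulated genes (0.10) passed. Of 10 genes of egress and retention none passed and the median was −0.22. Of 23 genes of AP-1 and dissociation stress, which tissue handling can induce, Gadd45b passed (0.71 ± 0.13, adjusted p = 0.0481) and the median was 0.08. Gadd45b passed in thinned cells (0.76). It did not pass in DESeq2 (0.75), without the 5 cells of highest gate sum (0.71) or without cells with Cd8 (0.61). The summed stress list was at 16363 CPM against 15553 in BM only and 12762 against 12768 in BM + Spl. The summed level thus differed by little between the gate and comparison cells. Jaml (0.70 ± 0.12, adjusted p = 0.0266), a junctional adhesion molecule gene, and Rilpl2 (0.73 ± 0.12, adjusted p = 0.0237) were broadly detected genes outside the lists that rose, in 145 and 97 of 267 cells and 37 and 38 of 63. Neither passed in DESeq2, at fold changes of 0.73 and 0.75, and Jaml did not pass in thinned cells (0.32). Gm2663 and 1810009J06Rik, also among the 25, had 66 and 35 UMIs in 3 cells each of the gate of BM + Spl. Both had 0 UMIs in both groups of BM only, so their calls rest on 1 library.

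Within the gate, cells with and without a Cd8 UMI differed in what they held, which is described here without a test. In BM only, all 194 UMIs of Ccl1, all 59 of Spp1 and 33 of 37 of Il2 were in the 31 cells with Cd8. Lag3 was at 295 CPM (221 to 387) in these cells and at 7.05 (3.04 to 13.9) in the 236 cells without Cd8, and Tnfrsf9 at 358 and 36.1. Gzma was at 943 and 878, and Nkg7 at 1847 and 1840. For Ccl1, Spp1 and Il2 this rests on single cells: 1 cell held 158 of the UMIs of Ccl1, 1 held 57 of those of Spp1, and 1 held all 33 of Il2, while 3 of the 4 cells with an Il2 UMI were without Cd8. Lag3 was found in 10 of 31 cells with Cd8 and 7 of 236 without. In the cells of BM only with an iNKT V beta, Ccl1 and Spp1 had 0 UMIs in 169 cells, which allows up to 3 UMIs, and Lag3 was at 9.99 CPM.

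In BM + Spl the cells without Cd8 were different again. Lag3 was at 815 CPM with Cd8 and 528 without, and Ccl1 at 1865 and 6672. The 14 cells with a Cd4 UMI and no Cd8 held 1391 of the 1796 UMIs of Ccl1, 196 of 200 of Il2 and 111 of 185 of Csf2. This too rests on few cells, since in the gate of BM + Spl 3 cells held 194 UMIs of Il2, 3 held 174 of Csf2 and 1 held 722 of Ccl1. Gzma in the gate was at 471 CPM with Cd8 and 37.7 without, and Ccl5 at 8759 and 1187. In the 19 cells with an iNKT V beta, Ifng was at 1220 CPM (1031 to 1433), Lag3 at 363, Klrb1c at 24.7 and Zbtb16 at 0. The iNKT V beta cells of BM only had 963 (896 to 1033), 9.99, 146 and 35.0, with 1 library on each side.

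Across all genes with at least 50 UMIs in the 2 gates, 216 of 4618 (4.68%) were over 2-fold higher in BM + Spl and 325 (7.04%) over 2-fold lower, with a median log2 ratio of 0.04. These are ratios of 2 libraries with no replicate, and 43 cell barcodes were shared between the libraries. Among the genes furthest higher was Gzmc, a granzyme gene, at 5231 CPM in BM + Spl against 28.2 in BM only (log2 ratio 7.53, 7.07 to 8.04), where 7 of 63 and 18 of 267 cells had it and comparison cells had 774 and 109. Cd70 was at 144 against 0.763 (7.56, 5.03 to 12.89), Ccl1 at 4317 against 148 (4.87, 4.65 to 5.09), and Pou2f2, a transcription factor gene, at 106 against 4.58 (4.53, 3.29 to 6.05). Gm2663 had 66 UMIs against 0, at least 69.3-fold higher at a floor of 3 UMIs per library. The comparison cells differed in the same direction for Cd70 (5.20), Ccl1 (7.70) and Pou2f2 (2.65), so these ratios were not confined to the gate.

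The genes furthest lower in BM + Spl had few or no UMIs there. Gm4208 had 0 UMIs against 145, Smad3, a TGF-β signal transducer, 0 against 80, and Klra8, the gene of the activating receptor Ly49H, 0 against 70, which are at least 15.3-fold, 8.47-fold and 7.41-fold lower at the same floor. Cfap77 was at 16.8 CPM against 398 (−4.56, −5.88 to −3.51). In comparison cells the log2 ratios were −7.76, −2.11, −2.17 and −4.96. Iglv2, an immunoglobulin light chain segment, had 68 UMIs in 1 cell of BM only and 0 in BM + Spl. Of the gate genes, Ifng was at a log2 ratio of 0.26 between the gates and −0.92 between the comparison cells. Xcl1 was at 1.72 and 0.33, Ccl3 at 0.73 and −0.13, and Ccl4 at 0.56 and −0.21. The gate had fixed the range of these genes.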

How the data were processed

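The authors deposited 1 table of raw UMI counts per library, made with Cell Ranger (3.0.2 for C57BL/6 and 7.0.0 for the BMT libraries in the file headers, another version than their methods state). Both 3′ and 5′ kits are named by the study and none is assigned to a library. The study's stated filter leaves more cells of the BMT libraries in these files than the study counted. Members and gene lists were chosen with earlier results of these data known.

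Cells were selected by the rule, their deposited counts were summed per library and group, and the sums were fitted with edgeR 4.0.16 (quasi-likelihood test, TMM factors, library as a block, Benjamini-Hochberg adjustment, R 4.3.3). A design with 3 libraries had been planned, but C57BL/6 had no cell in the gate, so the fit holds 4 sums of 2 libraries of different conditions, and the same direction was asked of 2 libraries. The p-values weigh the gate difference against a spread between those libraries, whose samples pool mice. Most of that spread was borrowed from other genes, so genes with unlike differences in the 2 libraries could pass. Each SE after a fold change is its size divided by the square root of the F statistic. It therefore holds the shared spread and is not the gene's own spread between the libraries. The tests were checked on simulated data. Shares have Clopper-Pearson and levels Poisson intervals (95%), and a count of 0 was given a limit of 3 counts. Genes were named if they were in the lists or among the 12 largest called rises and 12 largest called falls with 1 direction in both libraries (4 falls qualified, V segments aside), and between the gates for the 5 largest and 5 smallest ratios. The remaining called genes were named after their values were seen. Scrublet marked 0.0226%, 0.0503% and 0.0180% of cells as doublets and so had not worked; doublets were kept in the main analysis. Alternatives were DESeq2 1.42.0, other filters, depths and gates. Python 3.11.15 was used for the remaining steps.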

Additional observations from a re-analysis of the deposited data

Results flagged for a closer look

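For 7 of the listed or named genes the ratio of gate to comparison cells lay on opposite sides of 0 in BM only and BM + Spl with both counting intervals clear of 0. With 1 library per condition, the difference was not tested for any of them. The log2 ratios of the gate over comparison cells were −1.95 in BM only and 2.76 in BM + Spl for Gzmc, 0.18 and −0.25 for Zfp36, 0.14 and −0.59 for Fos, and 0.29 and −0.96 for Hspa1b. They were 0.38 and −0.90 for Ifitm3, 3.93 and −1.52 for Ly6d, and 0.84 and −1.63 for Foxp3. Ly6d in the gate of BM only was 64 UMIs in 2 of 267 cells, 53 of them in 1 cell. Foxp3 was 19 UMIs in 4 of 267 cells of that gate and 3 UMIs in 2 of 63 cells of the gate of BM + Spl.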

How the results depend on the processing

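Counts of called genes moved with the settings, from 25 higher and 5 lower (18 and 1 in the fixed lists). They were 11 and 0 with DESeq2 (10 and 0 in the lists), 74 and 34 with no filter (42 and 10), 13 and 1 at a gate sum of 10 (10 and 0), 98 and 28 at 40 (54 and 10), 10 and 2 with all 4 gate genes (7 and 0), 50 and 21 with 3 panel genes asked of the gate (29 and 6), and 38 and 17 without the highest doublet scores (28 and 3). Thinned cells gave 29 higher and 2 lower (22 and 0), with 15 of the 23 tested of the 25 again higher. Of alternatives chosen after seeing the data, leaving out the 5 highest cells gave 11 and 1 (8 and 0), cells without Cd8 gave 34 and 12 (21 and 3), and cells with an iNKT V beta 28 and 9 (17 and 2). With no replicate block, that is without the library as a block, 0 were higher and 0 lower in edgeR (0 and 0 in the lists), with 84 genes at an unadjusted p under 0.05, so every call rests on the block. The prior degrees of freedom behind the shared spread were 10.7 here and infinite with no filter, in thinned cells, at a gate sum of 40, without Cd8 and with an iNKT V beta, so those counts take all genes to vary alike. Leaving out a library leaves 1 pair and no residual degrees of freedom, so no test was run, and each library's own values are given in the text.

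Fold changes that turned were Gzmk in thinned cells (−0.28), Lyz2 at a gate sum of 10 (1.5), Gm2663 with all 4 gate genes (−0.48), and Cd70 (−1.70), Cd200 (−0.60) and Lag3 (−0.29) in iNKT V beta cells, and in BM only, without the highest cell, Il2 (−0.68) and Gzmk (−0.24). The cause was not tested. The thinned share in the gate, 0.0226% in C57BL/6, was 0 without thinning, at 4000 UMIs, at a gate sum of 40, with all 4 genes and at any mitochondrial share, and 0.232% of panel-positive and gate cells. In BM only, 3.95% became 5.12% at a sum of 10, 1.67% at 40, 0.778% with all 4 genes and 17.0% of panel-positive and gate cells. In BM + Spl, 0.921% became 0.641% at 40, 0.240% with all 4 genes and 13.4%. The log2 ratio of −2.10 became −1.39 at 40 and −0.34 of panel-positive and gate cells. Between the gates, 216 and 325 genes past 2-fold became 139 and 150 of 2156 at 40, and 119 were higher of 2715 in iNKT V beta cells. Depth limits the rarer genes, and 63 cells of BM + Spl limit every value there.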
